A study of Mus musculus with 12 samples.

Results

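The 10 genes described here, Foxo1, Foxo3, Foxp1, Klf3, Btg1, Btg2, Tob1, Slfn2, Tsc22d3 and Dapl1, are linked to the quiescence of resting T cells and were taken as a named list from the 56691 mouse genes of the count table. All 10 were found and all 10 had enough reads to be tested, with 15138 genes tested in all. These genes and the gene lists set beside them were chosen with earlier results of these data known. Their shares beside those of all genes describe them and do not test them as sets. The messenger RNA came from splenic CD4+ T cells of 12 Tg4 Nr4a3-Tocky Il10-GFP mice, with 3 mice and so 3 libraries in each of 4 groups. The study used mice of both sexes, typically 6 to 8 weeks old, and the sex of these 12 is not given. Tg4 mice carry a transgenic T cell receptor for a peptide of myelin basic protein (MBP), and the Tocky reporter makes a Timer protein, first blue and later red, when Nr4a3 is transcribed downstream of the receptor. Every mouse, the controls included, was given 4 mg/kg of [4Y]-MBP peptide under the skin, an antibody treatment after 24 h, 0.4 mg/kg of the peptide into the other flank 30 min after that, and was killed 12 h later. The treatments were an isotype pool of rat IgG1 and rat IgG2a (isotype), MIH5 against PD-L1 at 0.5 mg (anti-PD-L1), C9B7W against Lag3 (anti-Lag3), or a 1:1 mix of both blocking antibodies (CB). Only live CD4+ cells with both the blue and the red Timer were sorted, so the cells were chosen for recent signalling through their receptor, and no resting or unimmunised T cells are among the groups. The question put to these genes is how blocking PD-L1, Lag3 or both during a second encounter with peptide moved the transcripts of factors that hold T cells at rest.

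Quiescence in T cells is an actively maintained state of small cell size, low metabolism and no division. Transcription factors of the forkhead and KLF families keep homing receptors, survival receptors and cell cycle inhibitors expressed, while BTG and TOB proteins recruit the CCR4-NOT deadenylase to shorten the poly(A) tails of messenger RNA. Receptor signalling through PI3K and AKT sends FOXO proteins out of the nucleus, and transcripts of several of these factors fall as T cells leave rest. The transcript levels measured here say nothing of where the proteins were or how active they were.

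Reads counted on genes were between 16449370 and 22151025 per library (median 19176439). Levels below are counts per 1000000 reads (CPM), with library sizes scaled by TMM, and were not divided by transcript length. They come from 3′ tag libraries without molecular identifiers, and no level is compared between genes. In the check of the labelled cell type, the 10 T cell markers, Cd3e, Cd4 and Trac among them, summed to between 3872 and 4714 CPM in every library. Their range was 4525 to 4714 CPM in isotype and 3872 to 4085 CPM in CB. The 8 B cell markers summed to at most 29.2 CPM, the 8 myeloid markers to at most 16.1 CPM, the 4 NK cell markers to at most 5.50 CPM and the 4 platelet markers to at most 3.31 CPM. Transcripts of red cells, led by Hbb-bs, differed with the groups. The 6 erythroid markers summed to between 241 and 451 CPM in isotype, 216 and 289 CPM in anti-Lag3, 171 and 217 CPM in anti-PD-L1 and 150 and 198 CPM in CB, with Alas2 at no more than 7.10 CPM anywhere. The CD8 T cell pair, Cd8a and Cd8b1, summed to between 40.9 and 45.3 CPM in isotype and at most 33.2 CPM in CB. The sum was between 29.2 and 46.4 CPM in anti-Lag3 and between 24.6 and 30.5 CPM in anti-PD-L1. Nearly all of it was Cd8b1, at 24.4 to 46.4 CPM per library, while Cd8a reached at most 3.24 CPM. Whether this sum reflects CD8 T cells was not tested. The part of these marker levels in the results was not tested. In such bulk RNA, fewer cells with a transcript and less of it per cell cannot be told apart.

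The promoters of the members are given first, since they show what the genes share outside their expression. RefSeq holds 14 start sites for the 10 genes on GRCm38.p6, and windows of 300 bases around each, from 250 before to 50 after the start, were searched on both strands for 6 motifs. The forkhead letters GTAAACA, or TGTTTAC on the other strand, were found at Dapl1 and Btg1 only, and in 3.65% of the 32851 windows of all genes. The Dapl1 match began 164 bases and the Btg1 match 204 bases before the start. The letters of the GC box bound by SP and KLF factors, GGGCGGG or CCCGCCC, stood in 10 of the 14 windows and at 9 of the 10 members, Slfn2 being the exception, against 25.6% of all windows. The members' windows had a median GC content of 60.8% against 52.7% for all windows. The NFAT core GGAAAA was found at Foxo1 alone (23.4% of all windows), the cAMP response element TGACGTCA at Btg2 alone (1.79% of all windows), and neither the AP-1 letters TGACTCA (5.2%) nor the CACCC box CCACACCC (3.56%) at any member. A match of letters is a description and not a site of binding. The following lines hold the 250 bases before the start of Dapl1 (chr2:59484403-59484652) and Foxo1 (chr3:52268087-52268336), the members called lower in more than 1 comparison, and of Btg1 (chr10:96616751-96617000), the other gene with the forkhead letters. All lie on the plus strand and are written 5′ to 3′, with the forkhead and GC box letters in capitals.
Dapl1: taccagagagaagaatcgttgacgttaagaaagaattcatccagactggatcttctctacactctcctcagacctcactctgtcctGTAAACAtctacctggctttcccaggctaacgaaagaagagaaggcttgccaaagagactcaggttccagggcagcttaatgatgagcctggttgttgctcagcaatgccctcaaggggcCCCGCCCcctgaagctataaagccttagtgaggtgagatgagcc
Foxo1: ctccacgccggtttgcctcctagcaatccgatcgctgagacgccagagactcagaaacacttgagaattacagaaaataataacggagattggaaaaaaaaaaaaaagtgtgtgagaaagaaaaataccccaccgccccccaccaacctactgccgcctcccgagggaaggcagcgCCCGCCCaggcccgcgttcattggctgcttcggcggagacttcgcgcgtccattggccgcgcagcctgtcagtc
Btg1: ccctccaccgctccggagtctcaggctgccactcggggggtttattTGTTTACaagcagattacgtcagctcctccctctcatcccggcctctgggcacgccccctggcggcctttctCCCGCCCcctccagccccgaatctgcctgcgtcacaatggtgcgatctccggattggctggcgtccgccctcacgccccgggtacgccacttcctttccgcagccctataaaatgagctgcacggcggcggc

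Under combined blockade Dapl1, Klf3 and Foxo1 fell against isotype, to 28.0%, 62.0% and 67.8% of the isotype mean. No member rose. In the quasi-likelihood test of edgeR, adjusted by Benjamini-Hochberg over all genes, 3 of the 10 members were called lower at an adjusted p under 0.05, where 4.29% of all genes tested were called in either direction and 1.96% were called lower. The fitted log2 fold change was below 0 for all 10, against 49.5% of all genes, and its median over the members was -0.58 against 0 over all genes. For 6 members, Foxo1, Foxp1, Klf3, Btg1, Btg2 and Dapl1, all 3 CB mice lay below all 3 isotype mice, which was so for 9.62% of all genes. The list was chosen with earlier results of these data known, so these shares describe it and do not test it. In the quasi-likelihood test neither antibody alone gave a called change in any member. Other settings called Dapl1 for anti-PD-L1: edgeR with the replicate number as a block (adjusted p = 0.00179) and DESeq2 (adjusted p = 0.0125). Without the low-count filter edgeR called Dapl1 for anti-PD-L1 (adjusted p = 2.63e-07) and for anti-Lag3 (adjusted p = 0.0120).

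**Figure D1:**
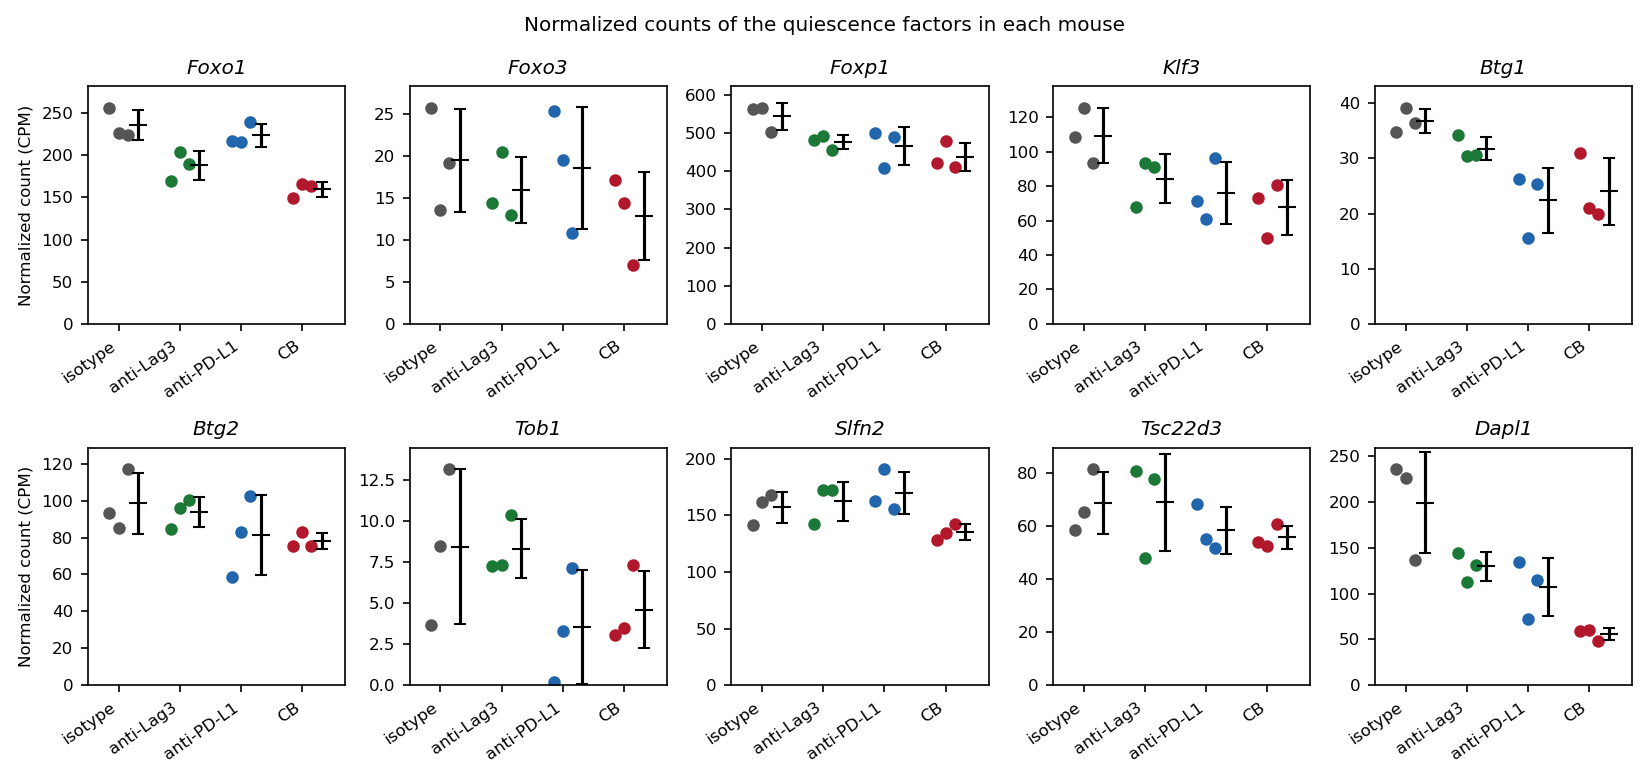
Normalized counts (CPM, linear axes from 0) of the 10 genes in each of the 12 mice; coloured points are mice, in order of their number within the isotype, anti-Lag3, anti-PD-L1 and CB groups, and black bars are the mean ± SD of 3 mice. The CB mice lie below all other mice for Foxo1 and Dapl1, and all groups overlap for Foxo3 and Tsc22d3.

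Foxo1 (ENSMUSG00000044167, chr3:52268336-52353221, plus strand) encodes the forkhead factor that drives the naive T cell programme of homing and survival genes. Its level was 257, 227 and 224 CPM in the isotype mice and 169.8, 204 and 189.9 CPM in the anti-Lag3 mice. It was 216, 215 and 239 CPM in the anti-PD-L1 mice and 149.7, 166 and 163 CPM in the CB mice. All CB mice lay below the other 9 mice, the anti-Lag3 mice came next without touching the isotype or anti-PD-L1 mice, and the isotype and anti-PD-L1 mice overlapped. The log2 fold change of CB against isotype was -0.56 ± 0.11 (SE; adjusted p = 0.00203). For anti-Lag3 it was -0.33 ± 0.11 (adjusted p = 0.805) and for anti-PD-L1 -0.08 ± 0.11 (adjusted p = 0.930). Foxo1 was also lower in CB than in anti-PD-L1, by a log2 fold change of -0.49 ± 0.11 (adjusted p = 0.0443), whereas against anti-Lag3 the value was -0.23 ± 0.11 (adjusted p = 0.490). The call against isotype was kept in all 12 fits that left out 1 mouse, while that against anti-PD-L1 was kept in 3 of them, those without isotype mouse 1, isotype mouse 3 or anti-Lag3 mouse 1, and the adjusted p reached 0.193 without CB mouse 1.

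Foxo3 (ENSMUSG00000048756, chr10:42181841-42276755, minus strand) encodes a second FOXO factor that shares many DNA targets with Foxo1. Its level was 25.8, 13.6 and 19.1 CPM in isotype, 14.4, 20.4 and 13.0 CPM in anti-Lag3, 25.4, 19.5 and 10.8 CPM in anti-PD-L1 and 17.1, 14.4 and 7.01 CPM in CB. All 4 groups overlapped, and only CB mouse 3 was below every mouse of the other groups. The mean in CB was 66.0% of isotype, close to the share for Foxo1, but the log2 fold change was -0.60 with a 95% interval from -1.33 to 0.13 (adjusted p = 0.422), so that a fall as large as that of Foxo1 and no change at all were both within it. The counts behind it were 152 to 512 reads per library.

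Foxp1 (ENSMUSG00000030067, chr6:98925338-99522721, minus strand) encodes a forkhead repressor that keeps naive T cells quiescent. Its level was 563, 567 and 502 CPM in isotype, 482, 492 and 456 CPM in anti-Lag3, 499.8, 409.8 and 490.4 CPM in anti-PD-L1 and 421, 479 and 411 CPM in CB. Every treated mouse was below every isotype mouse, while the 3 treated groups overlapped each other. The log2 fold changes against isotype were -0.32 ± 0.10 for CB (adjusted p = 0.0580), -0.22 ± 0.10 for anti-PD-L1 (adjusted p = 0.590) and -0.19 ± 0.10 for anti-Lag3 (adjusted p = 0.805). The CB value lay at the threshold and passed it with DESeq2 (adjusted p = 0.00882), with DESeq2's size factors (adjusted p = 0.0498) and without isotype mouse 3, anti-PD-L1 mouse 1, anti-PD-L1 mouse 2 or CB mouse 2 (adjusted p from 0.0331 to 0.0489).

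Klf3 (ENSMUSG00000029178, chr5:64803388-64832901, plus strand) encodes a Krüppel-like repressor that competes for the sites of activating KLF proteins. Its level was 109, 126 and 93.5 CPM in isotype, 67.9, 93.4 and 91.3 CPM in anti-Lag3, 71.2, 60.9 and 96.2 CPM in anti-PD-L1 and 72.9, 49.9 and 80.5 CPM in CB. The CB and anti-Lag3 mice were all below the isotype mice, although anti-Lag3 mouse 2 missed the lowest of them by less than 0.1 CPM, and anti-PD-L1 overlapped each of the other groups. The log2 fold change was -0.69 ± 0.18 in CB (adjusted p = 0.0247), -0.52 ± 0.18 in anti-PD-L1 (adjusted p = 0.461) and -0.38 ± 0.18 in anti-Lag3 (adjusted p = 0.805). The call in CB was lost without isotype mouse 1 (adjusted p = 0.0667), isotype mouse 2 (0.146) or CB mouse 2 (0.164), and over all 12 such fits the log2 fold change ran from -0.51 to -0.83. Klf3 overlaps the unclassified transcript C230096K16Rik on the same strand, which took 2043 reads over the 12 libraries against 19473 for Klf3.

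Btg1 (ENSMUSG00000036478, chr10:96617006-96622809, plus strand) and Btg2 (ENSMUSG00000020423, chr1:134075170-134079120, minus strand) encode antiproliferative proteins that hold T cell messenger RNA at low abundance through deadenylation. Btg1 was at 34.9, 39.2 and 36.5 CPM in isotype, 34.3, 30.4 and 30.6 CPM in anti-Lag3, 26.3, 15.5 and 25.3 CPM in anti-PD-L1 and 31.1, 21.1 and 19.97 CPM in CB. All mice of the treated groups were below all isotype mice, and anti-PD-L1, not CB, had the lowest mean, at 60.7% of isotype against 65.2%. The log2 fold change was -0.72 ± 0.24 in anti-PD-L1 (adjusted p = 0.428), -0.62 ± 0.24 in CB (adjusted p = 0.172) and -0.21 ± 0.24 in anti-Lag3 (adjusted p = 1.00). CB differed from anti-PD-L1 by only 0.10, with a 95% interval from -0.39 to 0.59.

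Btg2 was at 93.5, 85.3 and 117 CPM in isotype, 84.8, 95.9 and 100.5 CPM in anti-Lag3, 58.7, 83.0 and 102 CPM in anti-PD-L1 and 75.6, 83.1 and 75.6 CPM in CB. The CB mice were the least spread and lay below the isotype and anti-Lag3 mice, but within the range of the anti-PD-L1 mice. The log2 fold change of CB against isotype was -0.34 ± 0.16 (adjusted p = 0.335).

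Tob1 (ENSMUSG00000037573, chr11:94211454-94215495, plus strand) encodes a related inhibitor of T cell proliferation, and was the member with the fewest reads, 4 to 248 per library. It was at 3.67, 8.49 and 13.1 CPM in isotype, 7.24, 7.33 and 10.3 CPM in anti-Lag3, 0.232, 3.31 and 7.10 CPM in anti-PD-L1 and 3.04, 3.46 and 7.29 CPM in CB. The anti-PD-L1 mice lay just below the anti-Lag3 mice, all other pairs of groups overlapped, and within anti-PD-L1 alone the mice ran from 4 to 156 reads. The log2 fold changes were -1.24 for anti-PD-L1 (95% interval -2.67 to 0.19) and -0.87 for CB (-2.29 to 0.54), and a fall of Tob1 could not be detected at this depth and spread.

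Slfn2 (ENSMUSG00000072620, chr11:83065112-83070678, plus strand) encodes a schlafen protein needed for T cells to stay quiescent and survive. Its level was 142, 162 and 168 CPM in isotype, 143, 172 and 172 CPM in anti-Lag3, 162, 191 and 156 CPM in anti-PD-L1 and 129, 135 and 142 CPM in CB. The anti-PD-L1 and anti-Lag3 means were 108% and 103% of isotype and the CB mean was 86.1%, and isotype overlapped each of the other groups. The CB mice lay below all anti-PD-L1 and all anti-Lag3 mice, with log2 fold changes of -0.33 ± 0.12 (adjusted p = 0.350) and -0.26 ± 0.12 (adjusted p = 0.487). CB mouse 3, at 142.5 CPM, was only just below anti-Lag3 mouse 1, at 142.8 CPM. An antisense transcript, Gm20234, overlaps Slfn2, and whether the counting used strand is not stated. It took 301 reads over the 12 libraries against 36097 for Slfn2.

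Tsc22d3 (ENSMUSG00000031431, chrX:140539528-140600659, minus strand) encodes GILZ, a leucine zipper protein induced by glucocorticoids and by FOXO factors. Its level was 58.6, 65.4 and 81.4 CPM in isotype, 80.8, 48.0 and 77.7 CPM in anti-Lag3, 68.3, 55.0 and 51.8 CPM in anti-PD-L1 and 53.9, 52.5 and 60.6 CPM in CB. All groups overlapped, with the lowest mouse in anti-Lag3, and the log2 fold change of CB against isotype was -0.30 ± 0.18 (adjusted p = 0.441).

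Dapl1 (ENSMUSG00000026989, chr2:59484653-59505020, plus strand) encodes a small protein of the death-associated protein family and is a marker of naive and stem-like T cells. Its level was 235, 225 and 136 CPM in isotype and 145, 113 and 131 CPM in anti-Lag3. It was 135, 72.7 and 114 CPM in anti-PD-L1 and 58.8, 60.5 and 48.1 CPM in CB. All CB mice were below all the other mice, all anti-PD-L1 mice were below all isotype mice, and isotype mouse 3 fell within the range of the anti-Lag3 mice. The log2 fold change of CB against isotype was -1.83 ± 0.19 (adjusted p = 1.85e-06), the smallest p but 3 among the 15138 genes tested. For anti-PD-L1 it was -0.89 ± 0.19 (adjusted p = 0.102) and for anti-Lag3 -0.62 ± 0.19 (adjusted p = 0.805). The anti-PD-L1 change was called by edgeR with the replicate number as a block (adjusted p = 0.00179) and by DESeq2 (adjusted p = 0.0125). Dapl1 was lower in CB than in either single-antibody group, by log2 fold changes of -0.94 ± 0.19 against anti-PD-L1 (adjusted p = 0.0238) and -1.21 ± 0.19 against anti-Lag3 (adjusted p = 0.00116). Its calls against isotype and against anti-Lag3 were kept in all 12 fits that left out 1 mouse. The call against anti-PD-L1 was lost without anti-PD-L1 mouse 1 (adjusted p = 0.117), anti-PD-L1 mouse 3 (0.0639) or any 1 of the CB mice (0.0614 to 0.148), and anti-PD-L1 became called against isotype without isotype mouse 3 (0.00482) or anti-PD-L1 mouse 1 (0.0293).

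**Figure D2:**
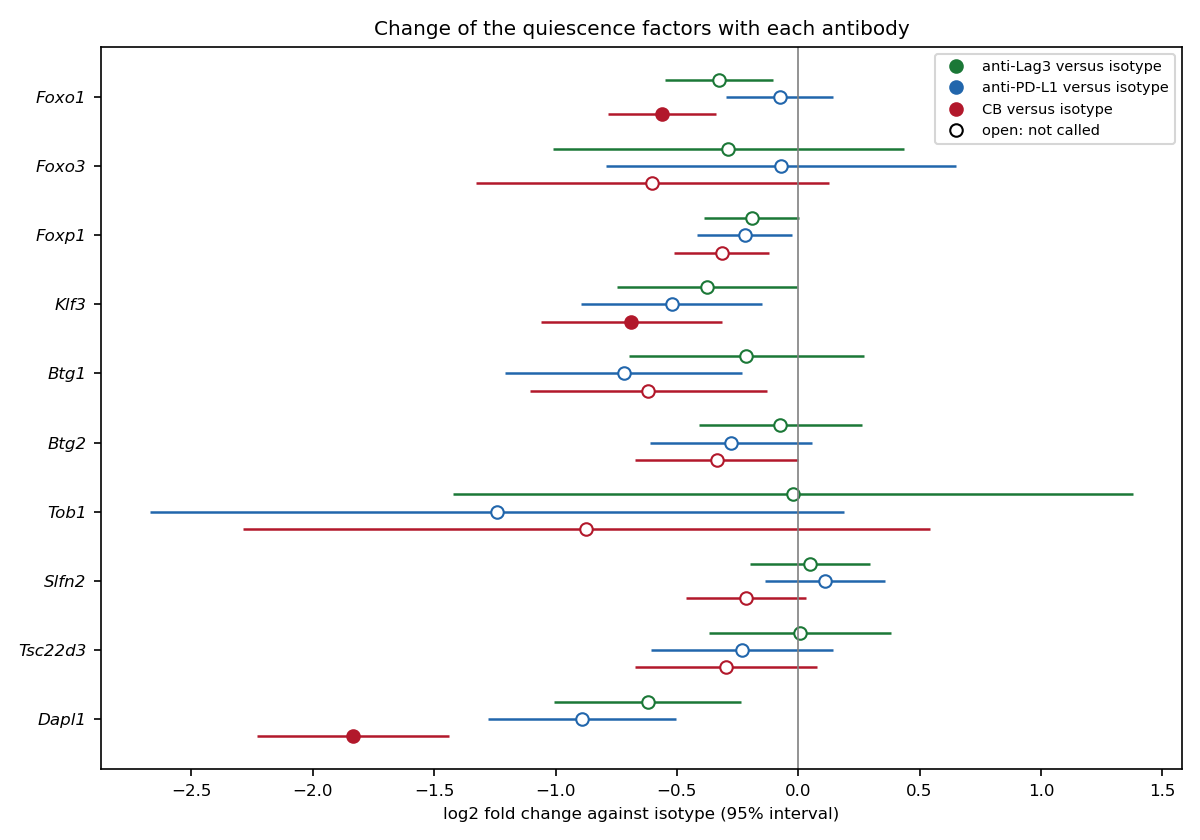
Fitted log2 fold change against isotype, with its 95% interval, for each gene and each antibody treatment (3 mice per group); filled points passed an adjusted p of 0.05. All 10 CB points lie left of 0, from -0.22 for Slfn2 to -1.83 for Dapl1, and the filled points are Foxo1, Klf3 and Dapl1 in CB.

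Each antibody alone was compared with isotype to separate the contribution of either pathway. Anti-PD-L1 against isotype had 9 of 10 members below 0 (49.9% of all genes) with a median of -0.25, and anti-Lag3 had 8 below 0 (48.9%) with a median of -0.20, where the median over all genes was 0 in both. For anti-PD-L1 no member was called in edgeR's test (0.033% of all genes were), and 4 members, Foxp1, Klf3, Btg1 and Dapl1, had an unadjusted p under 0.05, as 7.84% of all genes did. DESeq2 called 1 member, Dapl1 (adjusted p = 0.0125), as did edgeR with the replicate number as a block (adjusted p = 0.00179). For anti-Lag3 neither a member nor any other gene was called (0% of all genes), and 3 members, Foxo1, Klf3 and Dapl1, had an unadjusted p under 0.05, as 5.21% of all genes did. DESeq2 called 10 genes there and no member. The anti-PD-L1 mice did not overlap the isotype mice, on the lower side, for Foxp1, Btg1 and Dapl1 (6.46% of all genes), and the anti-Lag3 mice for Foxo1, Foxp1, Klf3 and Btg1 (4.81% of all genes). These comparisons share the 3 isotype mice with each other and with the CB comparison.

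Adding the second antibody was compared directly. Against anti-PD-L1, CB was called lower for 2 members, Foxo1 and Dapl1, where 0.37% of all genes were called and 0.165% were called lower. The members' median was -0.13 with 8 below 0, as 48.4% of all genes were. Against anti-Lag3, CB was called lower for Dapl1 alone (0.694% of all genes were called and 0.304% called lower), while the median was -0.31 with all 10 below 0, as 49.2% of all genes were. CB and anti-PD-L1 did not overlap, with CB lower, for Foxo1, Slfn2 and Dapl1 (5.75% of all genes), and CB and anti-Lag3 for Foxo1, Btg2, Slfn2 and Dapl1 (7.09% of all genes).

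Whether the fall in CB differed from the sum of the single-antibody changes was tested as an interaction on the log2 scale. For Dapl1 the single changes summed to -1.51 and CB measured -1.83, a difference of -0.32 with a 95% interval from -0.87 to 0.22. For Foxo1 the sum was -0.40 and CB -0.56, a difference of -0.16 (-0.47 to 0.15). Klf3, with a sum of -0.90 against -0.69 in CB, gave 0.21 (-0.32 to 0.73). Only the interval of Slfn2 lay wholly below 0, at -0.37 (-0.72 to -0.03; adjusted p = 0.804). No member and no other gene passed the interaction test in edgeR (0% of all genes), with 1 member and 898 genes at an unadjusted p under 0.05 and 5 genes called by DESeq2. The intervals leave room for departures from additivity in either direction for all the other members.

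The members were also compared mouse by mouse. Each of the 3 CB mice was below the isotype mean for 10 of 10 members, by a median of 0.37, 0.44 and 0.42 on the log2 CPM scale. The anti-PD-L1 mice were below it for 7, 8 and 8 members and the anti-Lag3 mice for 9, 8 and 6, while the isotype mice themselves were below their own mean for 5, 4 and 5. By group mean, isotype was highest for 8 members, the exceptions being Slfn2 and Tsc22d3, and CB was lowest for 8, the exceptions being Btg1 and Tob1, which were lowest in anti-PD-L1. Between the single antibodies, the anti-Lag3 mice lay below the anti-PD-L1 mice without overlap for Foxo1, and the anti-PD-L1 mice below the anti-Lag3 mice for Btg1 and Tob1. The share of all genes separated in this way was not computed, nor were all-gene shares for the counts by mouse and by group mean. These counts describe the members only.

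**Figure D3:**
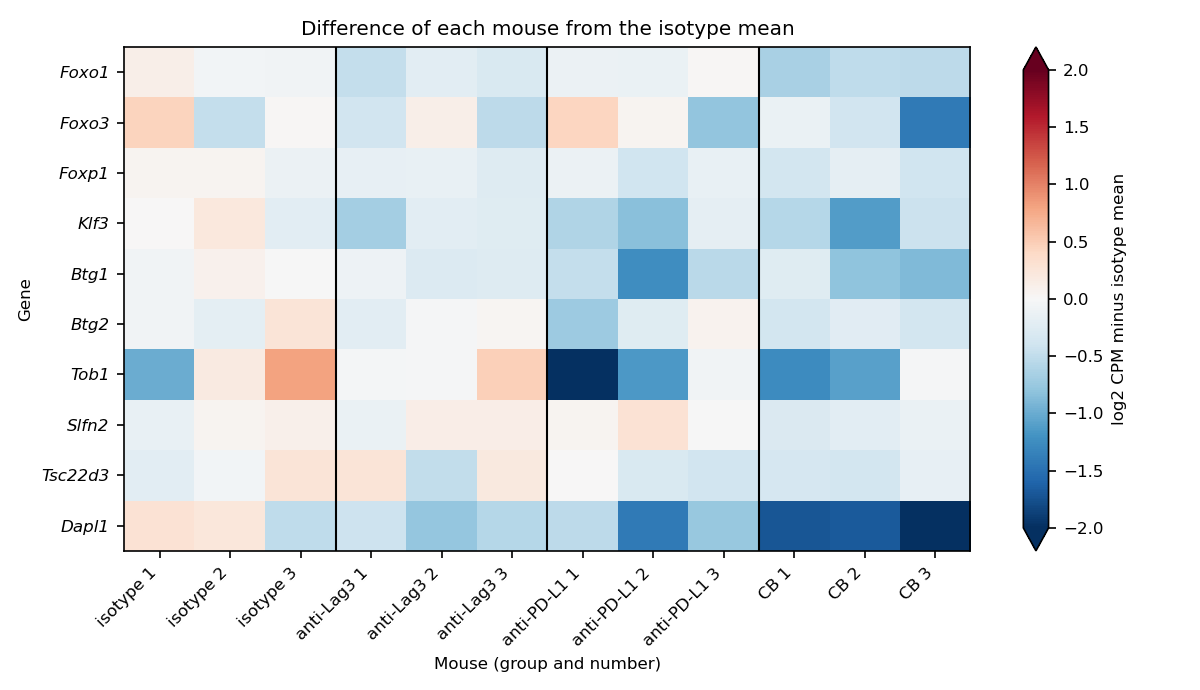
Difference of each mouse from the isotype mean in log2 CPM (colour, blue lower and red higher; rows are genes, columns mice, black lines separate groups), with the colour scale ending at -2 and 2. The 3 CB columns are blue for all 10 genes, and Dapl1 is the darkest row; the single darkest cell outside it is Tob1 in anti-PD-L1 mouse 1, which had 4 reads.

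Genes listed as FOXO targets in T cells fell with CB in part. The list does not record whether FOXO factors raise or lower each gene. Of 18 such genes tested, 6 were called lower and 0 higher against isotype, with 12 below 0 and a median of -0.27. Over all genes, 1.96% were called lower and the median was 0. S1pr1, the receptor that lets T cells leave lymphoid organs, fell by 1.41 ± 0.17 on the log2 scale (adjusted p = 1.03e-05), from 129 ± 10.7 to 48.3 ± 14.7 CPM. Ccng2, an atypical cyclin of resting cells, changed by -1.16 ± 0.24 (adjusted p = 0.00419) and Sesn1, a stress-induced inhibitor of mTORC1 signalling, by -1.75 ± 0.38 (adjusted p = 0.00576). Not every target was called: Klf2, the homing factor, had a log2 fold change of -0.24 ± 0.10 (adjusted p = 0.192). With the single antibodies the main edgeR fit called 0 of 18, with 5 for anti-PD-L1 and 2 for anti-Lag3 at an unadjusted p under 0.05. DESeq2 called 1 for anti-PD-L1 and 0 for anti-Lag3, as did edgeR with the replicate number as a block. Against anti-Lag3 CB was lower for 2, S1pr1 among them (-1.05 ± 0.17, adjusted p = 0.00144), and against anti-PD-L1 for 0, with 4 at an unadjusted p under 0.05 and 2 called by DESeq2. With the block, edgeR called CB lower for 3 against anti-Lag3 and for 2 against anti-PD-L1.

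Other genes that maintain T cell rest were described alongside. Of 24 tested, 4 were called lower in CB than in isotype and 0 higher, with 21 below 0 and a median of -0.29, where 1.96% of all genes were called lower and 49.5% were below 0. Lef1, a factor of naive T cells, changed by -0.64 ± 0.14 (adjusted p = 0.00502). The cyclin-dependent kinase inhibitors Cdkn1b (-0.65 ± 0.15, adjusted p = 0.00969) and Cdkn2d (-0.46 ± 0.11, adjusted p = 0.0110) fell, as did Tcf7, the naive and stem-like T cell factor (-0.29 ± 0.08, adjusted p = 0.0405). Cdkn1b and Tcf7 are also among the FOXO targets. Against anti-Lag3, edgeR called CB lower for 1 of the 24, Cdkn2d, and DESeq2 called 2. Against anti-PD-L1, the main edgeR fit called 0, with 7 at an unadjusted p under 0.05. DESeq2 called 2 there, and edgeR with the replicate number as a block called 1. For anti-PD-L1 and anti-Lag3 against isotype both tools called 0, with 5 and 3 at an unadjusted p under 0.05.

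On the opposite side, 5 of 18 genes of exit from quiescence were called higher in CB and 1 lower (4.29% of all genes were called in either direction), with a median of 0.24. Ncl, the nucleolar protein of ribosome synthesis, changed by 0.54 ± 0.08 (adjusted p = 0.000145), Hk2, a hexokinase of glycolysis, by 1.08 ± 0.21 (adjusted p = 0.00203) and Odc1, which starts polyamine synthesis, by 0.73 ± 0.19 (adjusted p = 0.0265). The other two called higher, named after their values were seen, were the interleukin-2 receptor chain Il2ra (0.99 ± 0.27, adjusted p = 0.0288) and the transferrin receptor Tfrc (0.76 ± 0.20, adjusted p = 0.0292). The gene called lower was Mki67, a marker of dividing cells, at 400.1 ± 44.7 CPM in isotype and 265 ± 28.8 CPM in CB (-0.59 ± 0.11, adjusted p = 0.00140). Hk2 was also called higher in CB than in anti-PD-L1 (0.90 ± 0.21, adjusted p = 0.0495) and, with Ncl, than in anti-Lag3 (0.87 ± 0.21, adjusted p = 0.0428).

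**Figure D4:**
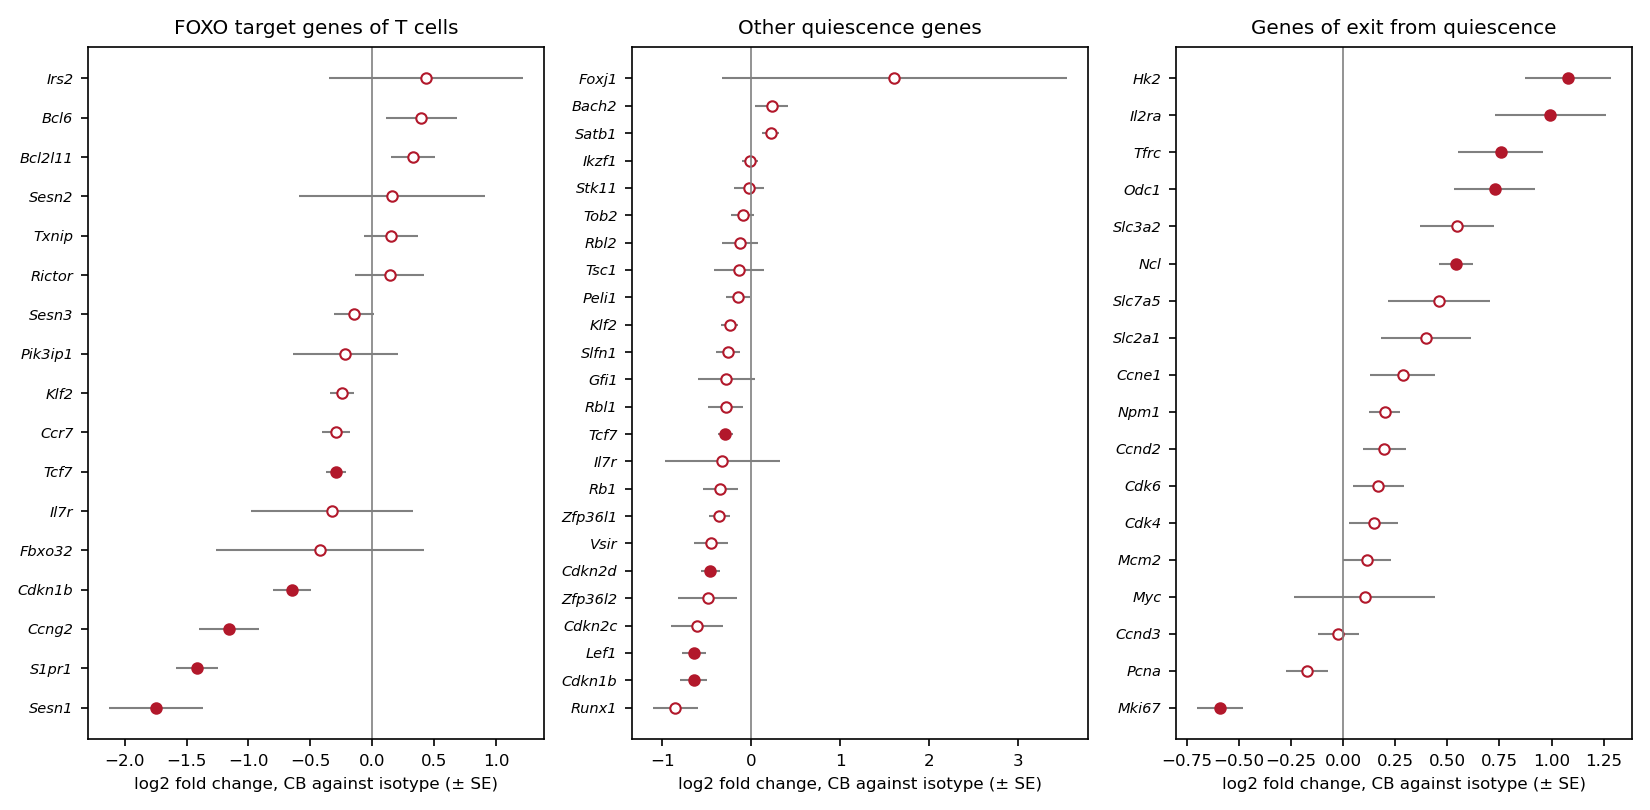
Log2 fold change of CB against isotype (± SE, 3 mice per group) for 17 of the 18 FOXO target genes, the 24 other quiescence genes and the 18 genes of exit from quiescence; filled points passed an adjusted p of 0.05, and the panels have different axis ranges. Filled points of the first 2 panels all lie left of 0 and those of the third lie right of it except Mki67 at -0.59.

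Genes that work with the members or resemble them were counted against the 4.29% of all genes called in CB against isotype. None of the 16 CCR4-NOT and poly(A) genes listed beside the BTG and TOB proteins was called in any comparison by the main edgeR fit. With the replicate number as a block, edgeR called Pabpc1 (adjusted p = 0.0306) and Cnot6l (adjusted p = 0.0459) lower in CB than in isotype. In CB against isotype 2 had an unadjusted p under 0.05 and DESeq2 called 2, and the values of smallest adjusted p were those of the deadenylase Cnot6l (-0.33 ± 0.11, adjusted p = 0.0974) and the poly(A)-binding protein Pabpc1 (-0.23 ± 0.08, adjusted p = 0.0981). Nor was any of the 21 PI3K, AKT and mTOR genes upstream of FOXO called by the main edgeR fit. In CB against isotype 2 of these had an unadjusted p under 0.05 and DESeq2 called 1. The phosphatase Inpp4b was at -0.43 ± 0.14 (adjusted p = 0.0729, and 0.0430 in edgeR with the block) and the mTOR partner Mlst8 at 0.69 ± 0.28 (adjusted p = 0.202). The block fit also called 1 of the 21 lower in CB than in anti-Lag3. Of 11 glucocorticoid response genes, Tsc22d3 included, 10 were below 0 in CB with a median of -0.25, 0 were called by edgeR or DESeq2 and 0 had an unadjusted p under 0.05. Among these Ddit4, an inhibitor of mTORC1, was at 0.21 ± 0.12 (adjusted p = 0.407). Of 23 paralogs tested, 2 were lower in CB than in isotype, the TSC22 relative Tsc22d4 (-0.45 ± 0.13, adjusted p = 0.0392) and the KLF factor Klf13 (-0.36 ± 0.10, adjusted p = 0.0412), and 1 was higher, the schlafen Slfn8 (1.09 ± 0.32, adjusted p = 0.0487). Klf13 was also lower in CB than in anti-Lag3 (-0.45 ± 0.10, adjusted p = 0.0323).

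The genes whose log2 CPM followed Dapl1 most closely over the 12 libraries, among 10448 genes, were Scml4 (Pearson's r = 0.95), St6gal1 (0.94), Gabarap (0.94), Ehmt2 (0.94) and Stmn1 (0.93). Those nearest to Foxo1 were Otulinl (0.92), Rassf2 (0.91), Myh9 (0.91), Slc9a3r1 (0.90) and Cdc42se2 (0.90). These are descriptions over libraries that also share their groups, and no test goes with them. Scml4, a polycomb-group protein, went from 24.99 CPM in isotype to 6.69 CPM in CB, and Rassf2 from 73.5 to 45.6 CPM.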

How the data were processed

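Libraries were made from 5 ng of RNA with the QuantSeq 3′ kit. The authors trimmed reads with cutadapt 1.18, mapped them to GRCm38 with STAR 2.6.1a and counted them on genes with featureCounts 1.6.4, per the submitters' processing notes; the annotation release and strand setting are not given in the sources used here. The deposited counts are raw whole numbers for 56691 genes and 114 spike-ins (0.719 to 1.29% of reads), which were left out. The rlog table was not used, and 0 columns of other samples were present. Symbols came from GENCODE vM21 (52073 genes) and promoters from RefSeq (GRCm38.p6).

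Counts of genes with at least 30 reads in sum were tested with edgeR 4.0.16 (limma 3.58.1, R 4.3.3): TMM, 1 fit of 4 group means to 12 mice, quasi-likelihood tests, Benjamini-Hochberg adjustment over 15138 genes and a threshold of 0.05. The 6 comparisons were CB against each other group, isotype against either antibody alone, and their interaction. Fold changes carry a prior count of 0.125 and log2 CPM one of 2. The fit was tested on simulated data (CB against isotype, 14278 genes). In these 200 genes were changed in CB, all drawn from genes averaging at least 30 reads per library. Of the genes changed, 52% at 2-fold and 77% at 4-fold were found, beside 12 false calls among the unchanged genes. The recovery of genes with fewer reads was not simulated. Alternatives were DESeq2 1.42.0 against 0 and 0.2, glmTreat against 0.2, DESeq2's size factors, TMM without the most abundant gene (14.3 to 21.9% of counts), no low-count filter, filterByExpr, a block for the replicate number, a fit of just the groups compared, and each mouse left out.

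The members and gene lists were chosen with earlier results of these data known. All members were named, with up to 4 called genes of each list by smallest adjusted p, or up to 2 where none was called, and the 5 genes most like Dapl1 and Foxo1 by Pearson's r among genes whose counts averaged 30 or more. Klf2, Il2ra and Tfrc were named outside this rule. A gene that this rule names is not reported here. No 2 libraries of the same group were closer than sampling noise, and pairs from different groups were not checked for this.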

Additional observations from a re-analysis of the deposited data

How the results depend on the processing

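The falls of Dapl1 and Foxo1 in CB against isotype, and of Dapl1 against anti-Lag3, kept their direction and their call under all 9 alternatives and in all 12 fits without 1 mouse. Klf3 lost its call against isotype with DESeq2 against 0.2 (adjusted p = 0.333) and with glmTreat (0.0757), tests that ask for a larger change, and without isotype mouse 1, isotype mouse 2 or CB mouse 2.

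Genes called over the comparisons CB, anti-PD-L1 and anti-Lag3 against isotype, CB against anti-PD-L1 and anti-Lag3, and the interaction were 649, 5, 0, 56, 105 and 0. DESeq2 against 0 gave 56 for anti-PD-L1, 10 for anti-Lag3, 157 and 284 for CB against each single antibody, and 5 for the interaction, with 1 member called for anti-PD-L1. DESeq2 against 0.2 gave 233, 11, 2, 16, 41 and 2 in the order above, with 0 members called in CB against anti-PD-L1. With glmTreat the counts were 364 for CB, 2 for anti-PD-L1, 3 and 39 for CB against each single antibody, and again 0 members in CB against anti-PD-L1. No low-count filter gave 40, 14, 150, 252 and 10 from anti-PD-L1 onwards, with 1 member, Dapl1, called for each single antibody (adjusted p = 2.63e-07 for anti-PD-L1 and 0.0120 for anti-Lag3). The fit of only the groups compared gave 3 for anti-PD-L1 and 4 for CB against anti-PD-L1, with 0 members in the latter. The cause of these differences in count was not tested.

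The replicate number was tried as a block. Residuals of same-numbered mice of different groups correlated with r from -0.061 to 0.12 (median 0.061), with 2 of 18 pairs over 0.1. Differently numbered mice of different groups gave r from -0.13 to 0.074 (median -0.015), with 0 of 36 pairs over 0.1. These values do not settle whether the number marks a shared sort, and the main fit left the number out. Of the 12 mice, 8 correlated best on average with their own number. Mice were sorted in batches of 4, and the labels do not say whether the number marks them. Within a sort, the cells of each of the 4 treatments carried a CD4 antibody of their own colour. That colour and the treatment cannot be told apart. The paper ascribes PC2 of its principal component analysis largely to sort batches. With the replicate block the called genes numbered 843 for CB, 23, 9, 137, 208 and 4, the members called were 4 for CB (Foxp1 added, adjusted p = 0.0267) and 1 for anti-PD-L1 (Dapl1, adjusted p = 0.00179), and Tob1 and Tsc22d3 in anti-Lag3 changed sign, to 0.23 and -0.012.

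Without 1 mouse at a time, called genes ranged from 394 to 705 for CB, the lowest without CB mouse 3, from 0 to 10 for anti-PD-L1, 0 to 1 for anti-Lag3, 4 to 57 and 42 to 125 for CB against anti-PD-L1 and anti-Lag3, and 0 to 2 for the interaction. Members called ranged from 0 to 2 for CB against anti-PD-L1 and from 0 to 1 for anti-PD-L1 against isotype. Small uncalled changes turned sign. In CB against anti-PD-L1 the ranges were -0.13 to 0.23 for Btg1, -0.25 to 0.14 for Btg2, -0.31 to 0.038 for Klf3, -0.18 to 1.37 for Tob1 and -0.15 to 0.060 for Tsc22d3. In anti-Lag3 they were -0.17 to 0.065 for Btg2, -0.025 to 0.13 for Slfn2, -0.38 to 0.45 for Tob1 and -0.12 to 0.21 for Tsc22d3, and in anti-PD-L1 -0.36 to 0.20 for Foxo3. For the interaction they were -0.17 to 0.21 for Btg2, -0.52 to 0.054 for Foxo3, -0.16 to 1.39 for Tob1 and -0.28 to 0.055 for Tsc22d3. Tob1 and Foxo3 had the fewest reads of the members, down to 4 and 152 in a library.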
